A study of Homo sapiens with 6 samples.

Results

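The binding of DPF3a, SMAD4 and p300 was examined at 10 genes of the Hippo pathway: the DNA-binding factors TEAD1, TEAD2, TEAD3 and TEAD4, their coactivators YAP1 and WWTR1 (the gene of TAZ), and the target genes CCN1, CCN2, ANKRD1 and AMOTL2. A peak was assigned to a gene when its summit lay in the GENCODE gene on hg38 or within 20 kb of it, which gave 136 of the 118277 peaks in the 3 lists. All 6 libraries were ChIP-seq of 786-O cells, an established human line of clear cell renal cell carcinoma, with 2 replicates for each factor. DPF3a, a short isoform of the chromatin remodelling subunit DPF3, was precipitated through an HA tag from cells that overexpressed it, after a double fixation with DSG and formaldehyde. SMAD4, the common mediator of TGF-β signalling, and p300, a histone acetyltransferase, were precipitated with antibodies to the proteins themselves after formaldehyde alone. For the SMAD4 and p300 libraries it is not labelled if the cells also carried the DPF3a construct. Each factor has 1 peak list made from both replicates, so no spread between replicates and no test between conditions was available, and values were compared only within a list.

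In the Hippo pathway a kinase cassette built on MST and LATS kinases phosphorylates YAP and TAZ and holds them in the cytoplasm. When the kinases are inactive, YAP and TAZ enter the nucleus and bind TEAD proteins, which recognise the sequence CATTCC. CCN1 and CCN2 encode secreted matricellular proteins, ANKRD1 encodes a muscle ankyrin repeat protein, and AMOTL2 encodes an angiomotin family protein that restrains YAP, and all of them are widely used as readouts of YAP and TAZ activity.

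Sequences at summits are shown for the sites on which the description turns, 5′ to 3′ on the plus strand of hg38. Capitals mark exact matches, on either strand, to the TEAD sequence CATTCC, the AP-1 sequence TGACTCA, the RUNX sequence TGTGGT or the ETS sequence CCGGAAGT. A match on the minus strand appears here as its reverse complement, such as GGAATG for TEAD. CCN2, ANKRD1, AMOTL2 and WWTR1 are read from the minus strand and CCN1 from the plus strand. Each run covers 50 bp on either side of a DPF3a summit, except that of ANKRD1, which spans the summits of all 3 factors, and that upstream of WWTR1, from which untranslated bases were left out. The ANKRD1 run, the CCN1 promoter and the AMOTL2 run nearest the gene start were chosen after their values were seen.
CCN2, chr6:131951451-131951551: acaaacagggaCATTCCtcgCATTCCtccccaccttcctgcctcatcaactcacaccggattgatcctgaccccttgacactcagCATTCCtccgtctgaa
ANKRD1, chr10:90921193-90921413: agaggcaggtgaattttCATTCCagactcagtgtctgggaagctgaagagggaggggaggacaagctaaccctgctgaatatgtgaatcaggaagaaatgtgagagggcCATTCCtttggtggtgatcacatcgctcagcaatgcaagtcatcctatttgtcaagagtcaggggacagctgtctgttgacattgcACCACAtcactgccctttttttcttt
AMOTL2, chr3:134374493-134374593: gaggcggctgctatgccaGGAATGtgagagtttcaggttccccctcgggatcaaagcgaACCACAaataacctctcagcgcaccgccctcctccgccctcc
AMOTL2, chr3:134364226-134364326: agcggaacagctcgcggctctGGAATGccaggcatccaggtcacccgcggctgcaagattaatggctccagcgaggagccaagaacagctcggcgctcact
CCN1, chr1:85580635-85580735: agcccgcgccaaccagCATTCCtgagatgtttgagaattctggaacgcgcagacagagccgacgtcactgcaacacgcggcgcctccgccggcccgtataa
CCN1, chr1:85599155-85599255: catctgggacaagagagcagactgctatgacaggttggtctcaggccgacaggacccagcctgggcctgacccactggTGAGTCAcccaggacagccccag
WWTR1, chr3:149736327-149736427: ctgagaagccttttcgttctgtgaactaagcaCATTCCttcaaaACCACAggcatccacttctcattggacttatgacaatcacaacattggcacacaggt
WWTR1, chr3:149752490-149752571: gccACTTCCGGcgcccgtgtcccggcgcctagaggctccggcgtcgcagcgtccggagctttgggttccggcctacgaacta

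ANKRD1 carried the highest fold enrichment of DPF3a among the 62 DPF3a peaks at the 10 genes. Fold enrichment is the read pileup at the summit over the local background, each plus 1. The DPF3a summit lay at -276 bp from the gene start with a fold enrichment of 15.3, which is the 98.6th percentile of the DPF3a list, and with 125 reads (exact 95% Poisson interval 104 to 149, counting error only). SMAD4 peaked at -234 bp with 11.8-fold enrichment and 98 reads, the 95.2nd percentile of its list. The p300 summit stood closer to the gene start, at -126 bp, with 5.75-fold enrichment and 22 reads. The DPF3a peak overlapped the SMAD4 peak and the p300 peak, each by at least 0.5 of both lengths. This is the rule used here for a site of all 3 factors, and it sets no overlap between the SMAD4 and p300 peaks. In the run shown above, the 2 CATTCC matches fell near the other summits, at -16.5 bp from that of SMAD4 and at -0.5 bp from that of p300, and none fell within 50 bp of the DPF3a summit. A pair of DPF3a and SMAD4 peaks also overlapped at -10238 bp and -10318 bp, with fold enrichments of 6.95 and 6.08. The remaining peaks of the gene, DPF3a at -16930 bp, SMAD4 at 9226 bp and p300 at 5375 bp, had 12, 20 and 14 reads and were shared with no other list.

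CCN2 had a single peak in each list, and all of them lay at the gene start. DPF3a peaked at -129 bp with 10.3-fold enrichment and 69 reads, the 83.7th percentile. SMAD4 peaked at -73 bp with 7.67-fold enrichment and 89 reads, and p300 peaked at 147 bp, in the untranslated part of exon 1, with 5.43-fold enrichment and 29 reads. The DPF3a window held 3 CATTCC matches, centred at -36.5 bp, -27.5 bp and 37.5 bp from the summit on the plus strand. The SMAD4 window held 2 of these, and 1 of them was the longer ACATTCC. The DPF3a peak overlapped both others by the rule, whereas the SMAD4 and p300 peaks did not overlap each other by 0.5 of both lengths, since the SMAD4 peak spanned 1648 bp and the p300 peak 809 bp.

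CCN1 had 4 DPF3a, 4 SMAD4 and 3 p300 peaks in a window of 43829 bp. This was 9.13 DPF3a peaks per 100 kb, the 96.6th percentile of all protein-coding genes, and 6.85 p300 peaks per 100 kb, the 98.5th percentile. The strongest site lay downstream of the gene rather than at its start. There DPF3a peaked at 18444 bp with 10.7-fold enrichment, SMAD4 at 18465 bp with 14.4-fold and p300 at 18417 bp with 8.74-fold. These stood at the 86.1st, 98.6th and 99.0th percentiles of their lists, and the SMAD4 and p300 values were the highest at any of the 10 genes. The summits lie in the promoter of the noncoding gene ENSG00000230285, and the DPF3a window shown above held an AP-1 match and no TEAD match. A weaker site of all 3 factors lay upstream, in the body of DDAH1, at -3943 bp for DPF3a, with fold enrichments of 4.79, 4.57 and 4.44 for DPF3a, SMAD4 and p300. At the CCN1 start itself the fold enrichments were low although the reads were many. SMAD4 at 41 bp had 157 reads, the 98.1st percentile by height and the highest of the 53 SMAD4 peaks, over a local background of 30.9 reads, so that its fold enrichment was 4.95, the 27.5th percentile. DPF3a at -76 bp had 32 reads over 9.52 and 3.14-fold enrichment, and its window held 1 CATTCC match. A p300 summit at 506 bp had 3.16-fold enrichment, and none of the peaks at the start was shared between lists.

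AMOTL2 differed from the other targets in that it had 5 DPF3a and 6 SMAD4 peaks but no p300 peak. The nearest p300 summit lay at -52031 bp from its start. At 3 places within the gene DPF3a and SMAD4 peaks overlapped. Near the start DPF3a peaked at 936 bp with 8.67-fold enrichment and 86 reads, and SMAD4 at 1051 bp with 6.33-fold and 132 reads. In an intron DPF3a peaked at 11203 bp with 9.78-fold enrichment and 97 reads, beside SMAD4 with 7.13-fold and 115 reads. Farther in, DPF3a peaked at 17398 bp with 9.01-fold enrichment and 90 reads, beside SMAD4 with 4.10-fold and 67 reads. The sites at 936 bp and 11203 bp held a CATTCC match within 50 bp of the DPF3a summit, as shown above, and the site at 17398 bp held a RUNX match. The other 2 DPF3a and 3 SMAD4 peaks of AMOTL2 had fold enrichments from 2.35 to 4.37 and were shared with no other list. AMOTL2 had 9.98 SMAD4 peaks per 100 kb, the 95.4th percentile of protein-coding genes.

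**Figure D1:**
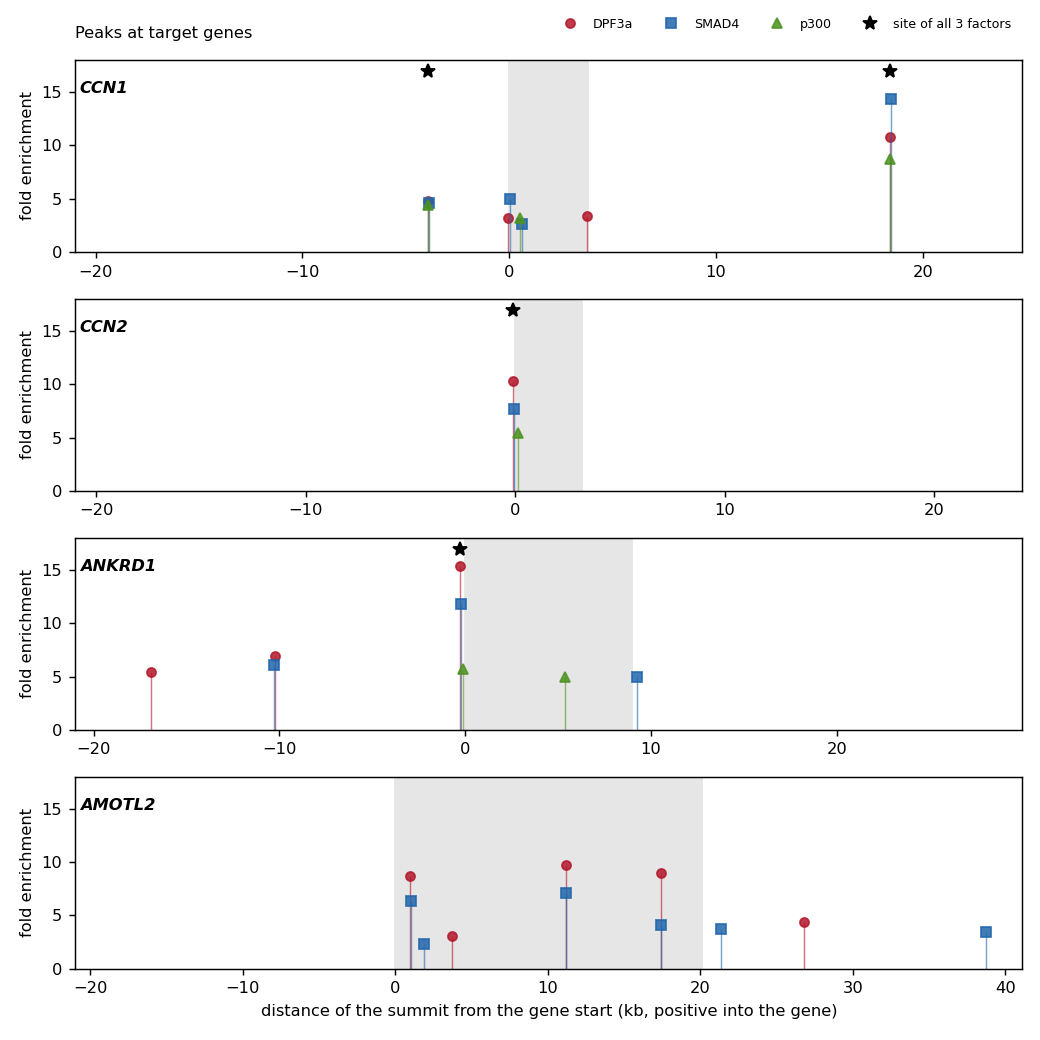
Fold enrichment of DPF3a (circles), SMAD4 (squares) and p300 (triangles) peaks against the distance of the summit from the gene start in kb, for CCN1, CCN2, ANKRD1 and AMOTL2, with the gene shaded grey and stars over sites of all 3 factors. The highest points stand at the start of ANKRD1 and CCN2, downstream of CCN1 and inside AMOTL2, where no triangle appears.

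WWTR1, the gene of TAZ, spans 219480 bp and had 18 DPF3a, 15 SMAD4 and 7 p300 peaks, more p300 peaks than any other of the 10 genes. Its highest DPF3a fold enrichment, 13.4 with 54 reads, lay at 337 bp from the gene start, which is the outermost start annotated. The canonical GENCODE transcript has its exon 1 at 78896 bp, so this peak stood upstream of that transcript. SMAD4 there had 4.22-fold enrichment and 19 reads. The window shown above held a CATTCC match at -15.5 bp and a RUNX match at -3.5 bp from the DPF3a summit. The tallest DPF3a peak of the gene was at 194104 bp, in the promoter of a shorter WWTR1 transcript, with 12.4-fold enrichment and 117 reads (96.8 to 140.2), and SMAD4 there had 7.79-fold and 89 reads. These DPF3a peaks stood at the 95.7th and 92.9th percentiles by fold enrichment.

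The 2 sites of all 3 factors at WWTR1 were at other starts. At 78896 bp the DPF3a summit lay in exon 1 of the canonical WWTR1 transcript and at the start of the antisense gene WWTR1-AS1. The fold enrichments there were 3.87, 6.12 and 3.46 for DPF3a, SMAD4 and p300. At -15807 bp, in the promoter of the neighbouring gene COMMD2, they were 8.88, 8.22 and 5.20, and the run shown above held an ETS match. The highest p300 fold enrichment at WWTR1, 6.82 with 41 reads at the 94.5th percentile, was at 154668 bp in an intron. DPF3a at 154612 bp with 6.53-fold and SMAD4 at 154792 bp with 6.76-fold stood beside it. The DPF3a and p300 peaks did not meet the overlap of 0.5, since their lengths were 1016 bp and 392 bp, so this place is not among the 8 sites of all 3 factors at the 10 genes. It held 2 AP-1 matches within 50 bp of the DPF3a summit. Within the gene the DPF3a fold enrichments ran from 3.50 at 156360 bp to 13.4 at 337 bp, and 11 of the 18 DPF3a peaks were shared with SMAD4.

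YAP1, which encodes the other coactivator, had 6 DPF3a, 6 SMAD4 and 2 p300 peaks. At its start the 3 summits were close together, at -254 bp for DPF3a with 5.87-fold enrichment, -214 bp for SMAD4 with 6.22-fold and -265 bp for p300 with 4.21-fold. The DPF3a summit was 40 bp from that of SMAD4 and 11 bp from that of p300. By the rule this was nevertheless no site of all 3 factors, because the SMAD4 peak was 2332 bp long and the DPF3a peak 677 bp. The highest DPF3a fold enrichment of YAP1, 9.82 with 32 reads, was at 67934 bp in an intron, where SMAD4 had 5.60-fold and 27 reads. At 115614 bp, in the promoter of a shorter transcript, DPF3a had 8.30-fold enrichment and SMAD4 8.48-fold, and the DPF3a window held a CATTCC match. The other p300 peak stood alone at -18807 bp with 16 reads.

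TEAD1 had the most peaks among the 10 genes, with 22 of DPF3a, 14 of SMAD4 and 4 of p300 over a window of 310317 bp. Per 100 kb this was 7.09 DPF3a peaks, the 91.8th percentile of protein-coding genes, 4.51 SMAD4 peaks, the 71.3rd, and 1.29 p300 peaks, the 52.1st. At the start of TEAD1 the DPF3a summit at 3 bp had 8.87-fold enrichment and 51 reads. SMAD4 at -183 bp had 9.60-fold and 134 reads, and p300 at 233 bp had 4.73-fold and 27 reads. An intronic site of all 3 factors lay at 128364 bp, with fold enrichments of 8.43, 9.75 and 4.98, and its window held no match to any motif searched. The highest DPF3a fold enrichment of TEAD1, 11.4 with 55 reads, was at 95775 bp in an intron, where SMAD4 had 5.05-fold. Of the 22 DPF3a peaks of TEAD1, 12 were shared with SMAD4 and 10 with no list, and 4 held a CATTCC match.

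The other TEAD genes had few peaks. TEAD4 had DPF3a at 106 bp with 4.69-fold enrichment and 25 reads, SMAD4 at -195 bp with 6.79-fold and 134 reads, and p300 at -510 bp with 3.48-fold and 30 reads. The DPF3a window at the TEAD4 start held 2 CATTCC matches. A further DPF3a peak at 87661 bp and a further SMAD4 peak at -14720 bp had 14 and 18 reads. TEAD3 had DPF3a at 564 bp with 4.87-fold enrichment and 14 reads, and SMAD4 at -394 bp with 6.18-fold and 57 reads. The only p300 peak assigned to TEAD3, at 28375 bp with 3.33-fold enrichment, and its other SMAD4 peak, at 28639 bp with 6.95-fold, lay at the start of the neighbouring gene RPL10A, which encodes a ribosomal protein. TEAD2 had no peak in any list. Its nearest SMAD4, DPF3a and p300 summits lay at -29595 bp, -46433 bp and -230813 bp. No peak was listed at 15.0% of all protein-coding genes.

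**Figure D2:**
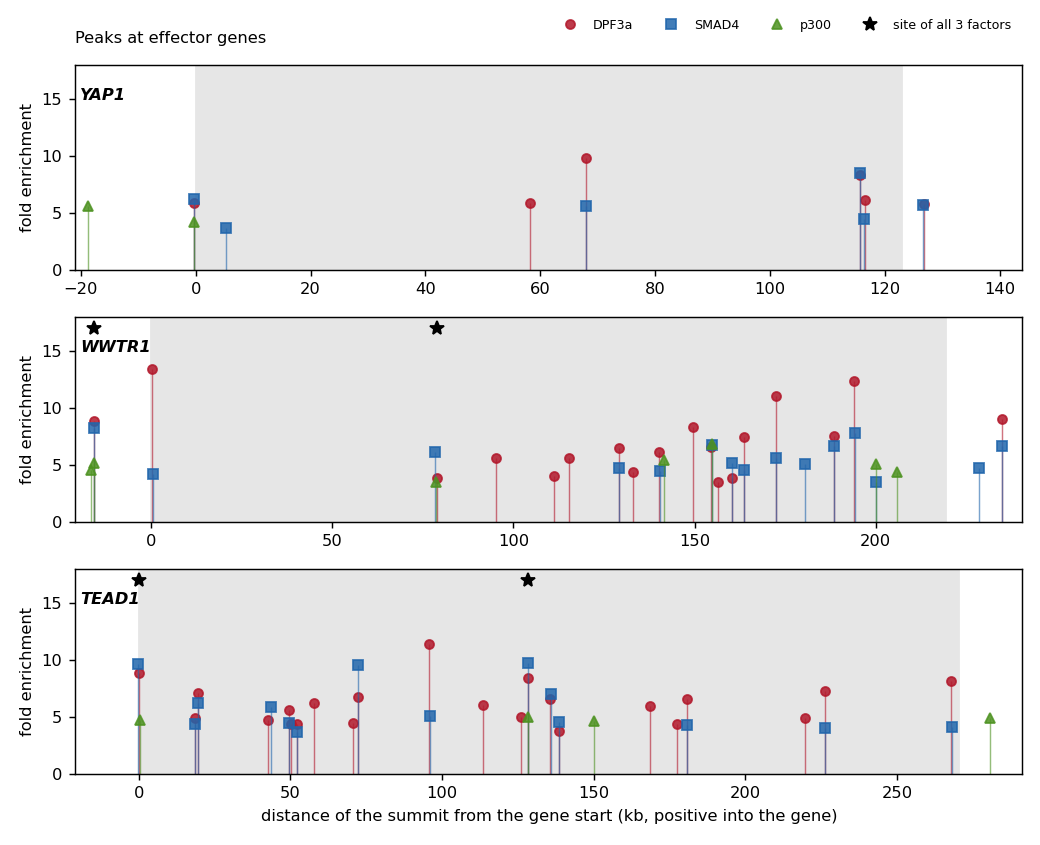
Fold enrichment of DPF3a (circles), SMAD4 (squares) and p300 (triangles) peaks against the distance of the summit from the gene start in kb, for YAP1, WWTR1 and TEAD1, with the gene shaded grey and stars over sites of all 3 factors. Most peaks lie inside the genes, and the stars stand at the start and in an intron of TEAD1 and at -15807 bp and 78896 bp of WWTR1.

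Counted over the 10 genes, DPF3a had a peak at 9, where 79.0% of 20033 protein-coding genes met the same rule, SMAD4 at 9 against 81.3%, and p300 at 8 against 64.7%. A summit in a promoter, from 1000 bp upstream to 100 bp downstream of any transcript start, was found for DPF3a at 8 genes against 41.7%, for SMAD4 at 9 against 57.2% and for p300 at 6 against 32.9%. A site of all 3 factors was found at 5 genes, TEAD1, WWTR1, CCN1, CCN2 and ANKRD1, against 41.4%. The counts of genes with a peak and with such a site lie near the background. With 10 genes chosen for their known roles, the promoter counts are a description only. The median gene of the 10 had 4.90 DPF3a, 4.10 SMAD4 and 1.43 p300 peaks per 100 kb, and the median protein-coding gene 2.36, 2.47 and 1.19.

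**Figure D3:**
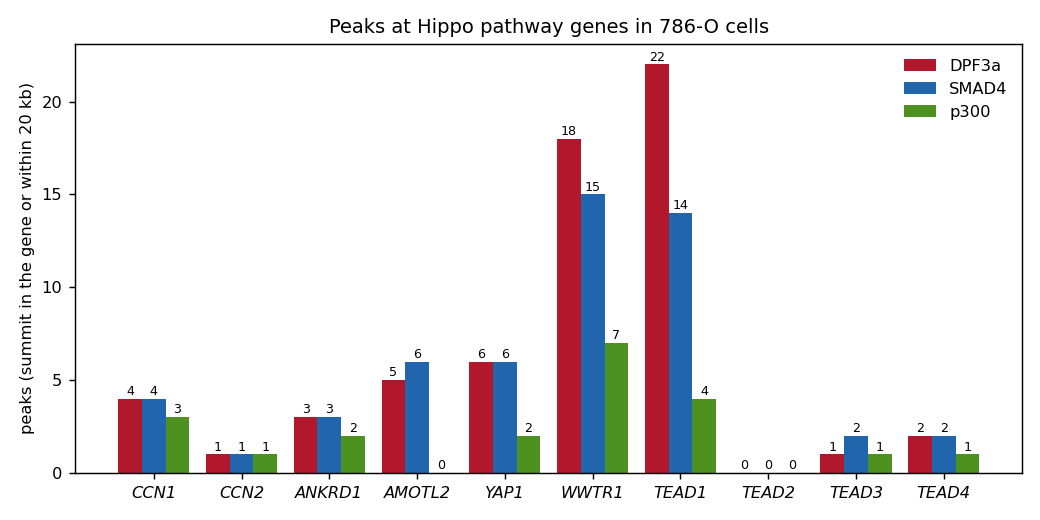
Number of DPF3a, SMAD4 and p300 peaks with a summit in each of the 10 genes or within 20 kb, as bars from 0. TEAD1 and WWTR1 hold 40 of the 62 DPF3a peaks, AMOTL2 has no p300 peak and TEAD2 has none.

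Summits inside the gene bounds, but outside promoters and the exons of the canonical transcript, were counted as 1 class. This class held 40 of the 62 DPF3a peaks, 26 of the 53 SMAD4 peaks and 7 of the 21 p300 peaks at the 10 genes. Most of it is intron, but it includes the WWTR1 peaks near the gene start, upstream of the canonical transcript. Promoters of the genes themselves held 12, 14 and 6. DPF3a peaks were shared with SMAD4 in 56.5% of 62 (Wilson 95% interval 44.1% to 68.1%), against 59.3% over the DPF3a list, and with p300 in 12.9% (6.69% to 23.4%), against 16.6%. Of the p300 peaks, 38.1% of 21 (20.8% to 59.1%) were shared with DPF3a, against 41.9% over the p300 list. All of these list shares lie inside the intervals, which cover counting error only and treat the peaks of a gene as separate. Where DPF3a and SMAD4 peaks were shared at the 10 genes, the summits were a median of 49 bp apart in 35 pairs, and 49 bp over the whole list.

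The position of the peaks within their lists depended on the measure. By fold enrichment the DPF3a peaks at the 10 genes had a median at the 39.7th percentile and the SMAD4 peaks at the 30.7th, whereas by summit height in reads they stood at the 59.6th and the 58.5th. The p300 peaks stood at the 52.3rd and the 54.5th. Ranked by −log10 q, the medians were the 48.6th percentile for DPF3a, the 43.3rd for SMAD4 and the 46.5th for p300. The median local background at these peaks was 4.20 reads for DPF3a and 7.80 for SMAD4, against 2.82 and 5.16 over the lists. The SMAD4 peaks at target genes had a median background of 15.2 reads, a median percentile of 28.0 by fold enrichment and one of 84.7 by height. A local background taken from the ChIP library itself counts reads of the region around a peak, and its part in these values was not tested.

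**Figure D4:**
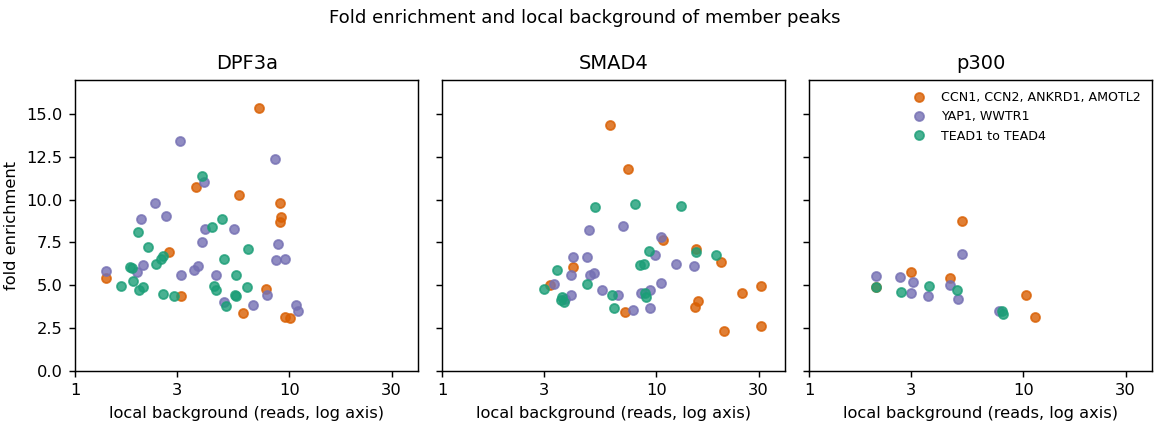
Fold enrichment against the local background in reads (log axis) of each DPF3a, SMAD4 and p300 peak at the 10 genes, coloured by role. The SMAD4 peaks at the CCN1 start stand far right, at backgrounds of 30.9 and 30.7 reads and fold enrichments of 4.95 and 2.62, while the peak downstream of CCN1 stands at 6.10 reads and 14.4-fold.

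Exact matches to known motifs were counted within 50 bp of each summit. CATTCC was found at 13 of the 62 DPF3a summits of the 10 genes, or 21.0% (Wilson 95% interval 12.7% to 32.6%). The share over all DPF3a summits was 12.5%. In windows of 50 bp centred 500 bp away on both sides and read together, 5.11% of all DPF3a summits had a match. The matches at the 10 genes were at 5 of 13 summits at target genes, 5 of 25 at TEAD genes and 3 of 24 at coactivator genes. The genes were chosen for their known roles, so these shares are a description only. The interval covers counting error only and treats the peaks of a gene as separate, although TEAD1 held 22 and WWTR1 18 of the 62. The longer ACATTCC, which is counted within CATTCC, was found at 7 summits, against 4.56% of the list. The AP-1 sequence TGACTCA went the other way in count, at 7 of 62 or 11.3% (5.58% to 21.5%), against 22.05% of the list. No DPF3a window at the 10 genes held both a TEAD and an AP-1 match, a combination found in 2.46% of the list. Within 100 bp of the summit 1 of 62 held both, against 6.59% of the list, and these counts are too small to tell from the list shares. RUNX matches stood at 13 summits, or 21.0%, against 15.0%.

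At the 53 SMAD4 summits CATTCC was found at 6, or 11.3% (5.29% to 22.6%), against 9.36% of the SMAD4 list, and TGACTCA at 4, against 15.0%. None of the 18 SMAD4 summits at TEAD genes held CATTCC. At the 21 p300 summits CATTCC was found at 2, those at the starts of TEAD4 and ANKRD1, or 9.52% (2.65% to 28.9%) against 4.85% of the p300 list. TGACTCA was found at 1, in WWTR1, or 4.76% against 3.61%. The palindromic SMAD sequence GTCTAGAC was found at no summit of the 10 genes, and at 0.239% of all SMAD4 summits. The ETS sequence was found at 1 summit of each factor, all at the COMMD2 promoter beside WWTR1, against 0.340% of all DPF3a, 0.595% of all SMAD4 and 0.378% of all p300 summits. The CArG box of SRF was found at 1 DPF3a summit, in a WWTR1 intron, against 0.386% of the list. A match is a description of the letters in a window and does not show which protein bound there. In the RefSeq promoters of GRCh38.p14, each 300 bases long, CATTCC occurred in 14.0% of 35116, with 3 matches in that of CCN2, 2 in that of ANKRD1 and 1 each in those of YAP1 and of 1 AMOTL2 start. The promoters of TEAD2, TEAD3 and WWTR1 and the other AMOTL2 start held no match. TEAD1, TEAD4 and CCN1 had no sequence among these promoters and were not counted.

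**Figure D5:**
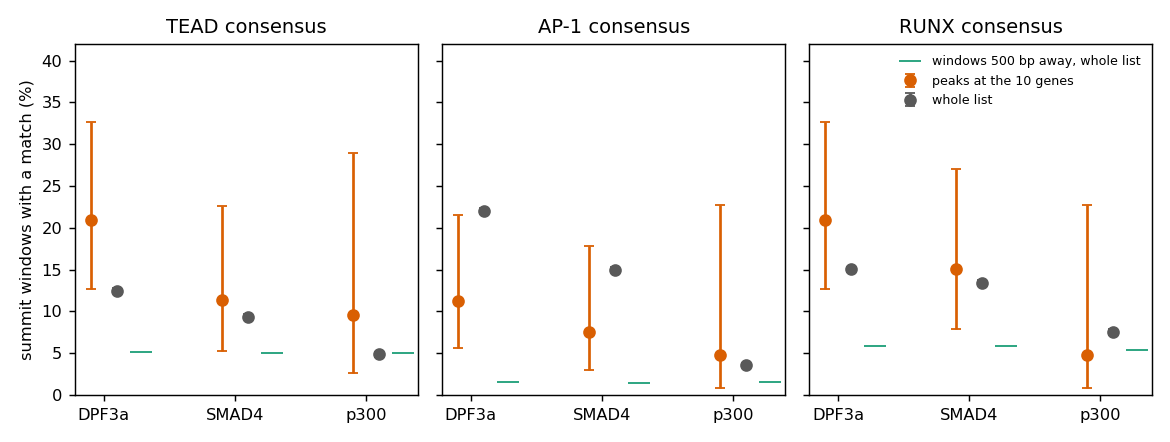
Share of windows of 50 bp on either side of the summit with a TEAD, AP-1 or RUNX match, in %. Points are for peaks at the 10 genes and for the whole list, with Wilson 95% intervals (narrower than the points for whole lists). Dashes give the share of all list summits with a match in windows of 50 bp centred 500 bp away on both sides, read together. For DPF3a the TEAD share is 21.0% at the 10 genes and 12.5% in the list, and the AP-1 share 11.3% and 22.05%.

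Other genes of the pathway were read by the same rule, under which 79.0%, 81.3% and 64.7% of all protein-coding genes had a DPF3a, SMAD4 and p300 peak and 41.4% a site of all 3 factors. The windows searched were longer than those of all protein-coding genes, with a median of 165.5 kb for the kinase cassette and regulators, 96.9 kb for the signature targets and 137.2 kb for all 40 further genes, against 67.5 kb, and a longer window can hold more peaks. Of 20 genes of the kinase cassette and its upstream regulators, all had a peak in every list, and 14 had a site of all 3 factors, with 24 sites. WWC1, the gene of the scaffold KIBRA, had 3 such sites, and the kinase genes LATS1 and LATS2 and LIMD1, whose product inhibits LATS, had 2 each, taken by alphabet among 8 genes with 2. Of the TEAD cofactors of the vestigial-like family, VGLL4 had 9 DPF3a, 12 SMAD4 and 3 p300 peaks and 1 site of all 3 factors. VGLL2 had 1 p300 peak, and VGLL1 and VGLL3 had no peak in any list. Of 18 further signature targets of YAP and TAZ, 17 had a DPF3a peak, 18 a SMAD4 peak and 16 a p300 peak, and 13 had a site of all 3 factors. MYOF, which encodes the membrane repair protein myoferlin, had 4 such sites, ASAP1 had 3, and ARHGEF17 and CRIM1 had 2 each, as did LATS2 and NT5E. LATS2 and PTPN14 stand in both lists, so that 40 distinct genes were read, of which 36 had a DPF3a peak, 37 a SMAD4 peak and 36 a p300 peak.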

How the data were processed

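Chromatin from 786-O cells was immunoprecipitated and sequenced for HA-tagged DPF3a, SMAD4 and p300, and samples were grouped by the factor in their titles. According to the methods and the submitters' processing notes, the authors trimmed reads with cutadapt, aligned them to hg38 with Bowtie2 2.3.5.1, discarded poorly mapped, mitochondrial and duplicate reads, and called peaks with MACS2 2.2.5. No control library is named, and how replicates were merged is not given in the sources used here. The score deposited by the authors is close to 10 times the −log10 q (largest difference 1 in each list), and its lowest value is 51. The authors also deposited the fold enrichment, a ratio of pileup to local background, with −log10 p and −log10 q.

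Height in reads and local background were computed from fold enrichment and −log10 p, and gave back the deposited −log10 p within 8.6e-04. The lowest background corresponded to a depth of 15.8 M reads (DPF3a), 30.4 M reads (SMAD4) and 27.6 M reads (p300) if fragments were 200 bp long and MACS2 used its human genome size. Genes, exons and transcript starts came from GENCODE 44. Promoter sequences came from RefSeq GRCh38.p14, and 7 of the 10 genes matched that table. Overlap calls were checked against bedtools 2.31.1, with the same result in 6 of 6 combinations, and scripts (Python 3.11.15, pandas 2.3.3, scipy 1.17.1, pysam 0.24.0) were tested on simulated data. Alternatives changed the score threshold, the distance around genes, the promoter, the overlap rule, the motif window and the ranking measure. The named genes were all 10 genes, and of each further list the 4 genes with most sites of all 3 factors and every gene with no peak. Genes and lists were chosen with earlier results of these data known.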

Additional observations from a re-analysis of the deposited data

How the results depend on the processing

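No paired analysis was possible because each factor has 1 peak list made from both replicates, and for the same reason no replicate could be left out. Of 69 values recomputed, 52 kept within 1.5 times the count, or within the counting interval, and 17 did not. With scores over 100, the 10 genes kept 37 DPF3a peaks and 4 p300 peaks, 3 genes had a p300 peak (WWTR1, CCN1 and CCN2), 0 had one in a promoter, 3 sites of all 3 factors were left, 14 of the 40 other genes had a p300 peak, and 73.0% of the DPF3a peaks were shared with SMAD4. With scores over 200, 20 DPF3a, 22 SMAD4 and 1 p300 peak were left, p300 had a peak at 1 gene (CCN1) and in the promoter of 0, and 1 site of all 3 factors was left. Shares over all protein-coding genes and over the whole lists were not computed at these higher scores. The counts therefore cannot be set against the shares given above. The p300 list had a median of 23 reads per summit, close to 25 for DPF3a and below 39 for SMAD4. It stood apart more clearly by −log10 q, with a median of 6.788 against 12.825 for DPF3a and 17.955 for SMAD4. The median fold enrichment was 4.923 for p300, against 6.704 and 6.305. These low p300 values limit every statement on p300 at single genes. With 50 kb on either side, SMAD4 had 82 peaks, and TEAD2 gained DPF3a and SMAD4 peaks. CATTCC stood within 100 bp of 22.6% of the SMAD4 summits at the 10 genes, against 16.9% of all SMAD4 summits in the same window. By read height, a measure added after the data were seen, the median percentile was 59.6 for DPF3a and 58.5 for SMAD4. Sites of all 3 factors numbered 11 with an overlap of 1 bp and 7 with summits within 200 bp. Both rules added the YAP1 start and the place at 154612 bp of WWTR1. The overlap of 1 bp also added the TEAD4 start, so that 7 genes had a site. With summits within 200 bp, CCN2 lost its only site, and the sites at the TEAD1 start and at 78896 bp of WWTR1 were lost as well.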
